A study of Mus musculus with 22 samples.

Results

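The genes described here are 35 genes of the enterocyte brush border and of nutrient uptake, taken by name from the 52636 genes of the deposited table, and read across all 22 RNA sequencing libraries of mouse duodenal organoids. All 35 names were found, and all 35 passed the filter on low values (10 or more in 3 or more of the libraries compared) in every comparison. They were placed by role into microvillus structure (6 genes), intermicrovillar adhesion (5), disaccharidases and alkaline phosphatase (5), peptidases (5), sugar transporters (3), peptide and amino acid transporters (5), bile acid and cobalamin uptake (3), and retinoid handling together with Cyp3a13 (3).

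The study exposed organoids, which are epithelial cultures grown in a gel from intestinal stem cells, to cold atmospheric plasma (CAP), an ionized helium jet that generates reactive oxygen and nitrogen species in the medium. It asked how the way and the time of application alter growth and differentiation. Organoid lines came from the duodenum of wild type adult mice of the outbred CD1 stock, 1 mouse per line, and each line is 1 culture, so the libraries of a line in different groups are not independent animals. No transgene or deletion was present in these lines, and all were grown in medium with EGF, Noggin and R-spondin 1.

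The untreated group holds 4 libraries, from lines 1, 2, 3 and 4, and each of the 6 treated groups holds 3 libraries, from lines 1, 2 and 4. The jet was set to 50 W for 60 s. In direct CAP the culture itself was placed under the jet at day 1, and fresh medium followed after 30 min or after 24 h. In indirect CAP the organoids received medium taken from another culture after CAP. For plasma-activated medium (PAM) the jet was applied to medium free of organoids, which was then given to them. The conditioned media were supplied starting at day 1 or at day 2, for 24 h each by the study's methods, whereas the labels give 30 min for the groups starting at day 1. The collection day was day 3, except that the time at which the 30 min group was collected is not certain from the sources used here. Lines 1 and 2 were at passage 12 and 14, and lines 3 and 4 at passage 4 by the labels. In the paper's list of lines, those at passage 12 and 14 came from male mice. The other 2 listed for the same figure came from females and stood at passage 2, not 4. All of these mice were 2 months old. Passage, mouse and, by that list, sex therefore change together between lines.

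Enterocytes carry on their apical face a brush border of microvilli, which are bundles of actin cross-linked by villin, espin and fimbrin, tied to the membrane by ezrin and class I myosin, and held to each other at their tips by protocadherin links. Disaccharidases and peptidases anchored in this membrane complete the digestion of sugars and peptides, and transporters beside them take up the products. As cells leave the crypt and move up the villus these genes come on in an order, and alkaline phosphatase, sucrase-isomaltase and the transporters are widely used as markers of the mature cell.

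Promoters of 33 of the 35 genes were found in RefSeq for the build GRCm38.p6. Eps8 and Myo7b had no entry. The 250 bases upstream of each start site are given here for 4 of them. Ezr and Lrat are shown because they had the largest rise past the threshold and the largest fall in the PAM group starting at day 2, and Alpi and Slc2a2 were picked after their values were seen, as members that hold the words searched. Capitals mark matches to those words. The windows lie at chr17:6782781-6783030 (minus strand) for Ezr, chr3:82903975-82904224 (minus strand) for Lrat, chr1:87101607-87101856 (minus strand) for Alpi and chr3:28697653-28697902 (plus strand) for Slc2a2, and each is written 5′ to 3′ on the strand of its gene.
Ezr: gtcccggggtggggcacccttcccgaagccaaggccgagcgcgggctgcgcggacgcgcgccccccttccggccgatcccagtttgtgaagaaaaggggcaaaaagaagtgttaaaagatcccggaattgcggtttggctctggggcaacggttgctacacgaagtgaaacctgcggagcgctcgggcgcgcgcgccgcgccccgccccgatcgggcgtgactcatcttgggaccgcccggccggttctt
Lrat: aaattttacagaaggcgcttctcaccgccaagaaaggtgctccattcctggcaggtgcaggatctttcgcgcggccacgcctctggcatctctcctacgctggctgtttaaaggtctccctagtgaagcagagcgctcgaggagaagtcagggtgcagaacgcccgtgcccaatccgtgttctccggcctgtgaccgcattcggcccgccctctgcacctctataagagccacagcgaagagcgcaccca
Alpi: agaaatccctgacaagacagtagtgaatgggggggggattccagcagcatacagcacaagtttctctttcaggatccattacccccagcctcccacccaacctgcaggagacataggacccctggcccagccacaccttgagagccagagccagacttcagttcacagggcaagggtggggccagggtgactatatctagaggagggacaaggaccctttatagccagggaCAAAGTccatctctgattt
Slc2a2: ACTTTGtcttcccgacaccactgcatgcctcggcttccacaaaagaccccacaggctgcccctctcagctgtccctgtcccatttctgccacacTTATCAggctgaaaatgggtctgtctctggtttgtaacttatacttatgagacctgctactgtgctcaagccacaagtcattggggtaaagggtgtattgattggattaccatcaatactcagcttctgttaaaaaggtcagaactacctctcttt

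Words of 4 factor families of the enterocyte were searched on both strands in these 250 bases. The HNF4 core CAAAGT was found in 27.7% of the 47 promoters of the members, against 12.6% of 32851 promoters in the table. The GATA words TGATAA and AGATAA were found in 27.7% against 16.6%, the HNF1 word GTTAAT in 8.51% against 6.43%, and the CDX core CATAAA in 12.8% against 10.8%. No member promoter held overlapping matches of different families. In Alpi the HNF4 word begins 19 bases before the start site, and in Slc2a2 an HNF4 word on the opposite strand begins the window and a GATA word on the opposite strand lies 156 bases before the start. Ezr and Lrat held none of these words in the window. These matches describe letters and are not evidence of binding.

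Each deposited value is a read count scaled to about 20 M per library and rounded up, so it stands for reads among 20 M and depends on gene length. The reads behind a library were estimated at 19.4 to 28.7 M, with a median of 22.5 M. For the untreated libraries labelled lines 1 and 2, the line of origin is in doubt. Among treated libraries all 45 pairs of the same line deviated together from their group means (Pearson's r across genes of 0.219 to 0.806), but the untreated library labelled line 1 had a median r of 0.0751 with the treated libraries of line 1 and of 0.541 with those of line 2. The untreated library labelled line 2 had a median r of 0.132 with its own line and of 0.353 with line 1. Counts of genes are therefore also given without these 2 libraries, and fits that use the line as a block rest on these labels wherever untreated libraries enter.

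The organoids expressed the enterocyte genes before any treatment. Per kilobase of exons, Alpi, the intestinal alkaline phosphatase, was the highest of the 35 genes in untreated organoids at 11540 ± 2575 (SD, n = 4), and Rbp2, the cellular retinol-binding protein of enterocytes, was next at 8656 ± 657. The range of the 4 libraries for these 2 genes overlapped. Sis (sucrase-isomaltase, 4234 ± 361) and Vil1 (villin, 3563 ± 276) followed, also with overlapping ranges. Their ranges lay below that of Rbp2.

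Myo1a, Cdhr5, Mgam, Cdhr2, Slc5a1 and Ezr followed between 2898 and 2019 per kilobase, and each of them overlapped the next in the order. At the low end stood Tmigd1 (46.3 ± 30.0), Slc10a2 (13.4 ± 3.78), Lct (12.7 ± 10.3) and Cubn (0.971 ± 0.396). Lct encodes lactase, Slc10a2 the ileal bile acid transporter and Cubn the cobalamin receptor cubilin, which acts in the ileum. In 28 of the 34 pairs of neighbours in this order the ranges of the 4 libraries overlapped.

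**Figure D1:**
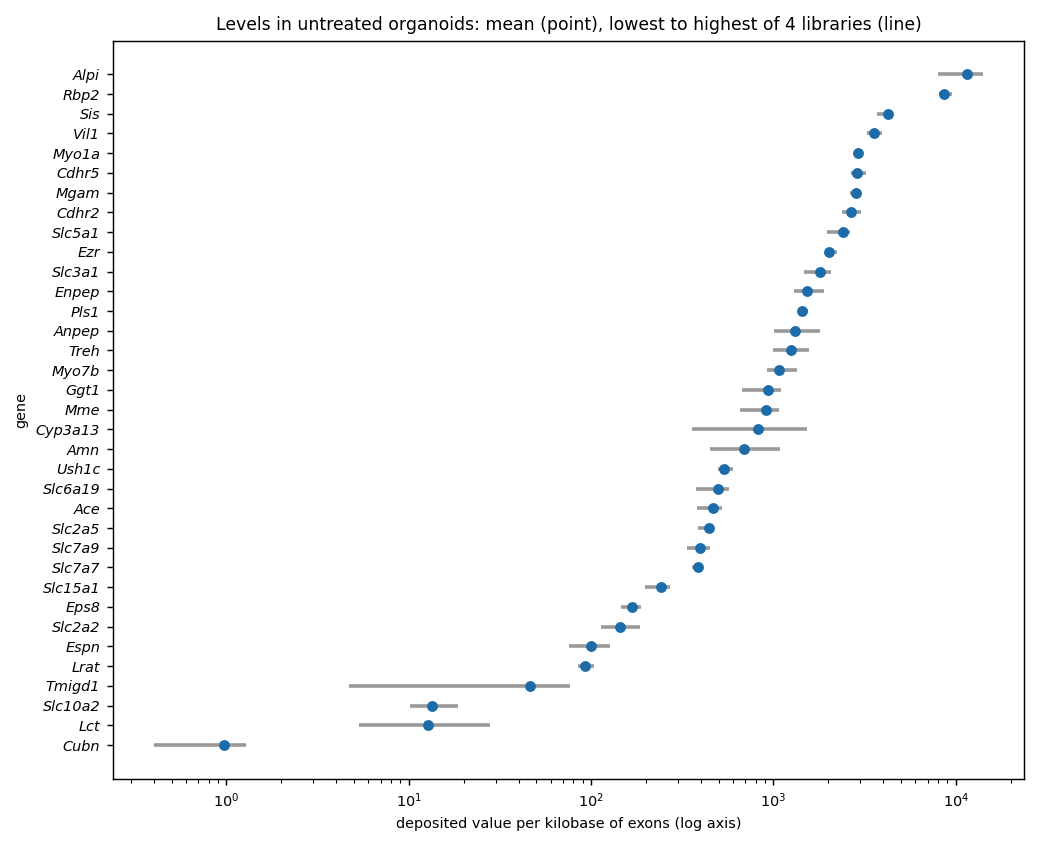
Deposited value per kilobase of exons (log axis) of the 35 genes in untreated organoids, as the mean of 4 libraries (point) and the range from the lowest to the highest library (line). The levels run from 11540 for Alpi to 0.971 for Cubn, and the ranges of most neighbours overlap.

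A call required a log2 fold change of 1 or more either way and an adjusted p (Benjamini-Hochberg) below 0.01 in limma's moderated test over all genes, on log2(value + 1). In the 3 groups exposed for 24 h from day 1, pooled (9 libraries against 4), 4 of 35 members passed, Ezr, Cdhr2 and Cubn higher and Lrat lower. That is 11.4% of the members beside 6.34% of the 18490 genes tested. The members' median log2 fold change was 0.20, beside -0.05 for all genes. Each of the 3 lines enters 3 times in the 9 libraries, so these are not 9 independent cultures.

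Among single groups, 30 min direct CAP gave 0 calls among the members in limma's test (0.00564% of all genes), with 10 members at an unadjusted p under 0.05, as were 24.9% of all genes. 24 h direct CAP gave 1 call, Cdhr2 higher (2.17% of all genes), and day 1 indirect CAP gave 1, Lrat lower (1.31%). Day 1 PAM gave 3, Ezr, Cdhr2 and Cubn, all higher (10.2%). From day 2, indirect CAP gave 5 calls, Ezr and Alpi higher and Anpep, Mme and Lrat lower (11.9%), and PAM gave 5, Ezr, Cdhr2, Cdhr5 and Alpi higher and Lrat lower (17.3%). The members' shares of 14.3% in both day 2 groups and 8.57% for day 1 PAM lie near these backgrounds, so the counts alone do not set the members apart from other genes. Some of these counts depended on line 2. Without the treated library of line 2, 24 h direct CAP gave 1 higher and 4 lower (377 of all genes either way), and Cdhr2 was not among them. Day 1 PAM gave 3 higher and 4 lower (1668), and day 2 indirect CAP 2 higher and 7 lower (1764). With all libraries 376, 1775 and 2127 genes had passed in these groups. Day 1 indirect CAP stayed at 1 without line 2 (50 of all genes), and day 2 PAM went from 5 to 6 (2414).

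With an adjusted p under 0.05 and no minimum fold change, more of the members passed, and mostly upwards except with day 2 indirect CAP. In the pooled groups 12 were higher and 1 lower, where 14.8% of all genes were higher and 18.7% lower. Day 1 PAM gave 12 higher and 2 lower (15.2% and 26.6% of all genes), and day 2 PAM gave 13 higher and 2 lower (18.5% and 29.1%). Day 2 indirect CAP gave 5 higher and 9 lower, which is near the shares of all genes (20.3% and 23.5%). Its members' median log2 fold change was -0.003, beside -0.008 for all genes. All of these comparisons share the untreated libraries.

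**Figure D2:**
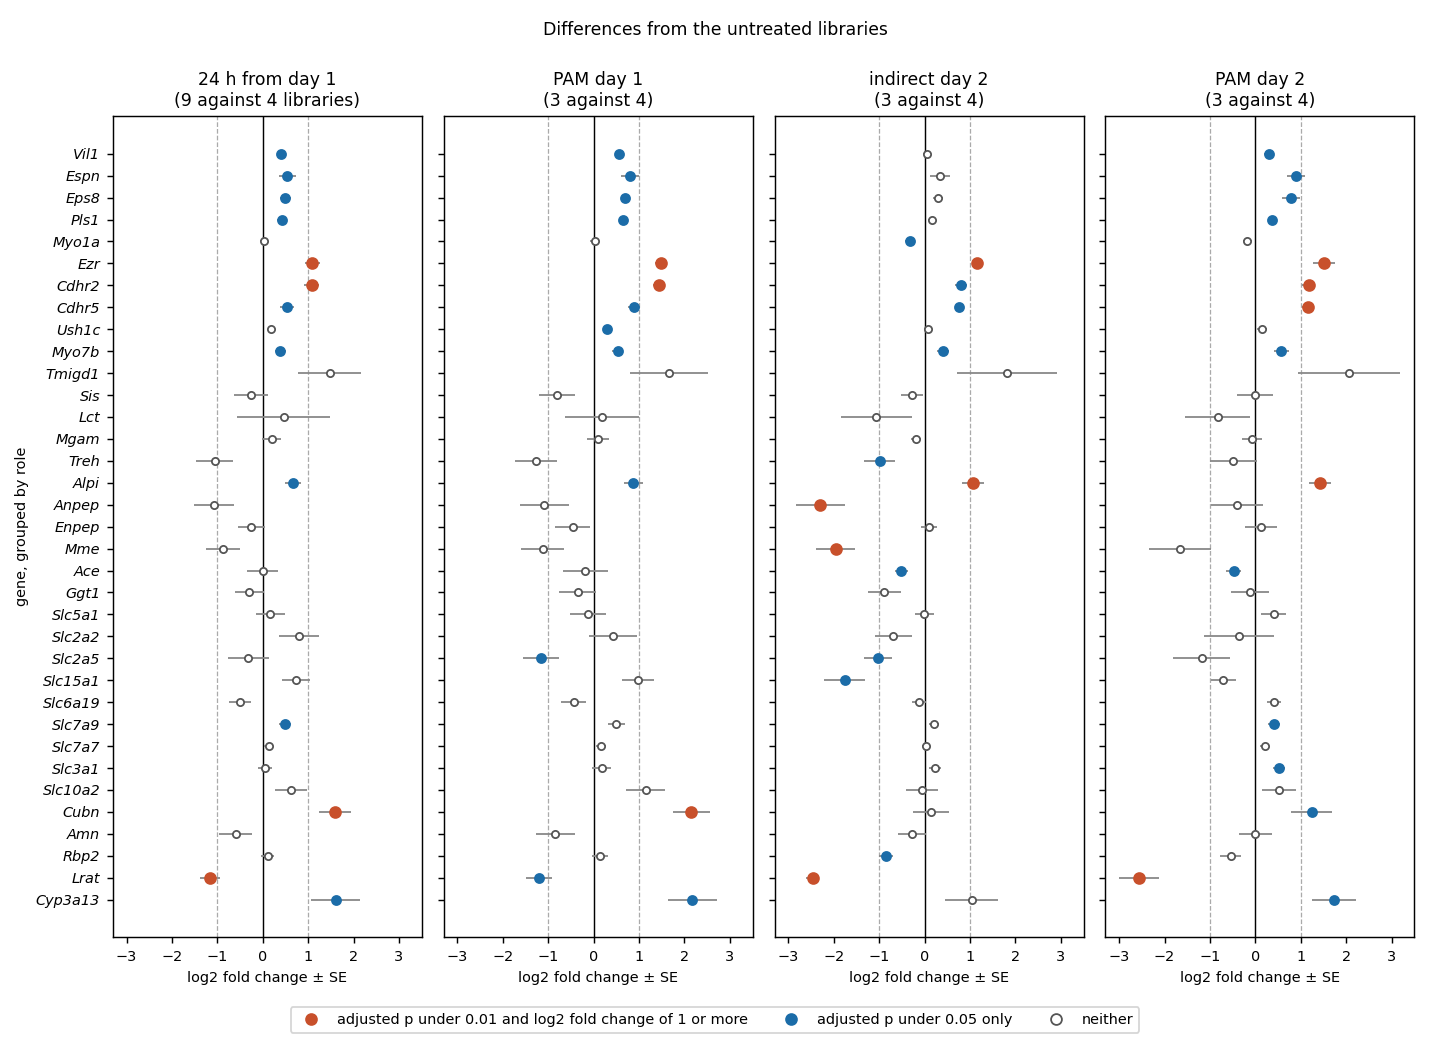
Log2 fold change against the untreated libraries with its standard error for the 35 genes, grouped by role, in 4 comparisons. Orange points passed the threshold (adjusted p below 0.01, beyond the dashed lines), blue points passed adjusted p under 0.05 only, and open points passed neither. Structure and adhesion genes at the top lie mostly to the right of 0, and peptidases to the left.

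**Figure D3:**
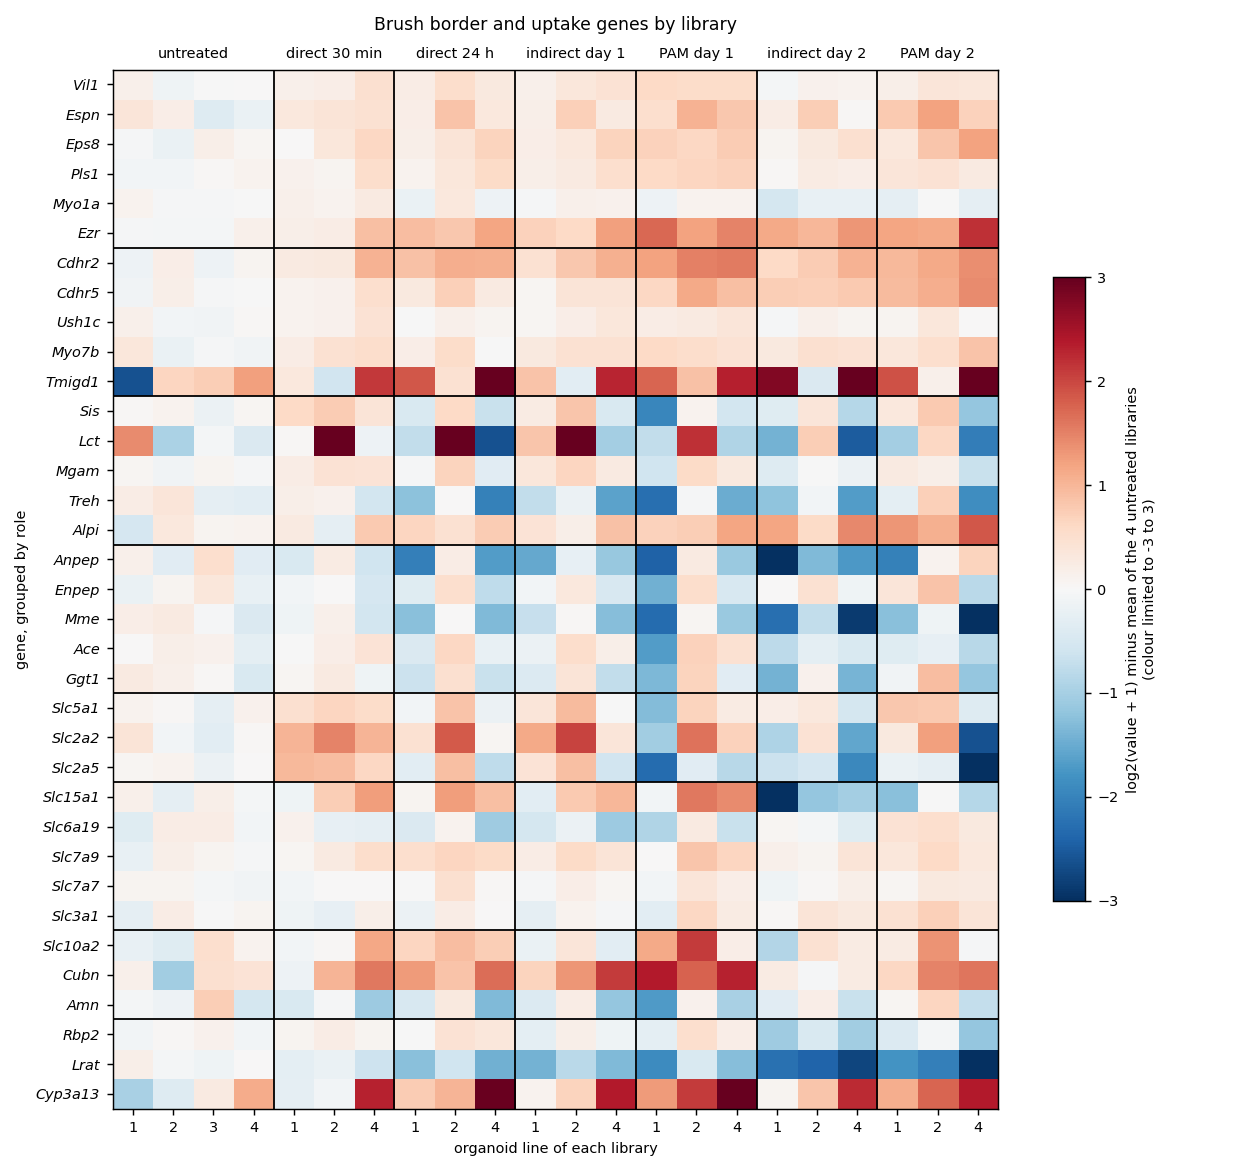
Heat map of the 35 genes (rows, grouped by role) in the 22 libraries (columns, by group and line), as log2(value + 1) minus the mean of the 4 untreated libraries, with red higher and blue lower. Ezr and Cdhr2 are above the untreated mean in all 18 treated libraries and Lrat is below it in all 18, while Lct, Slc2a2 and Mme differ between the lines of a group.

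Without the untreated libraries labelled lines 1 and 2, no member kept its call in the pooled comparison (0 members, 148 of all genes), after 24 h direct CAP (0 members, 0 genes), after day 1 indirect CAP (0 members, 0 genes) or after day 2 PAM (0 members, 1 gene). Day 2 indirect CAP kept 2 (1057 genes), Ezr and Lrat. Day 1 PAM gave 3 (866 genes), of which 2, Ezr and Cdhr2, had been called with all 4 untreated libraries, and Cubn was lost (1.71, adjusted p = 0.0123). These fits have only 2 control libraries. The fold changes moved little: in day 2 PAM, Ezr was at 1.45 (adjusted p = 0.0308), Cdhr2 at 1.20 (0.0132), Cdhr5 at 1.19 (0.0130), Alpi at 1.32 (0.02001) and Lrat at -2.50 (0.0355), on the log2 scale in limma's test.

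RNA of Ezr, which encodes ezrin, the protein that links actin to the microvillus membrane, was higher in every treated library than in every untreated one. Ezr was at 6428, 6383, 6394 and 7365 in untreated lines 1 to 4. It was at 12582, 11672 and 14952 in lines 1, 2 and 4 after 24 h direct CAP, at 10749, 10072 and 15443 after day 1 indirect CAP, and at 21701, 15411 and 18669 with day 1 PAM. All 9 values lay above all 4 untreated ones, as for 7.16% of all genes, and no line was the highest in all 3 groups.

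In the day 2 groups Ezr was at 14585, 13154 and 16506 with indirect CAP and at 15008, 14638 and 30280 with PAM. Line 4 was the highest in both groups, and in the PAM group it stood well above lines 1 and 2, which were close to each other. After 30 min direct CAP it was at 7525, 7749 and 12372, so that lines 1 and 2 were just above the untreated range and line 4 well above it. The log2 fold change was 1.09 (SE 0.17, adjusted p = 0.000651) in the pooled groups, 1.47 (SE 0.12, adjusted p = 0.000150) with day 1 PAM, 1.15 (SE 0.10, adjusted p = 0.000100) with day 2 indirect CAP, and with day 2 PAM the rise was 2.84-fold (SE 0.24 on the log2 scale, adjusted p = 0.00187). After 24 h direct CAP (0.97) and day 1 indirect CAP (0.84) it did not reach the fold minimum.

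The other microvillus genes shifted by less. Eps8, an actin capping and bundling protein of the tip, was at 2029, 1804, 2331 and 2149 in untreated lines 1 to 4, and at 3341, 3182 and 3519 with day 1 PAM. The groups did not overlap, and the log2 difference was 0.69 (adjusted p = 0.00105). Vil1 (0.56), Pls1, which encodes fimbrin (0.64), and Espn, which encodes espin (0.79), likewise passed an adjusted p of 0.05 with day 1 PAM without the fold minimum. Myo1a, the brush border myosin that ties the bundle to the membrane, did not follow them. Its log2 difference was 0.02 with day 1 PAM and -0.33 with day 2 indirect CAP (adjusted p = 0.0227), where its values of 7467, 9208 and 9186 lay below all untreated ones (10440 to 11485).

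The genes of both protocadherins of the tip links rose, Cdhr2 in more groups than Cdhr5. Cdhr2 was at 9850, 12441, 9849 and 11572 in untreated lines 1 to 4, at 20066, 23035 and 22921 after 24 h direct CAP, and at 25280, 31176 and 31981 with day 1 PAM. All treated libraries of both groups lay above all untreated ones. It reached 16420, 18318 and 22576 with day 2 indirect CAP and 21324, 24074 and 28703 with day 2 PAM, with line 1 the lowest each time. The log2 fold change was 1.07 (SE 0.17, adjusted p = 0.000624) in the pooled groups, 1.43 (SE 0.13, adjusted p = 0.000182) with day 1 PAM, and 1.17 (SE 0.14, adjusted p = 0.000563) with day 2 PAM. The call after 24 h direct CAP (1.01, adjusted p = 0.00321) is at the fold minimum. It was lost when any 1 of 6 of its 7 libraries was left out, all but untreated line 2, and with the line as a block (0.97).

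Cdhr5, the partner of Cdhr2 across the link, was at 7280, 8838, 7609 and 7782 in untreated lines 1 to 4. It was at 13154, 12998 and 13558 with day 2 indirect CAP and at 15218, 16705 and 21078 with day 2 PAM, all above the untreated range. Only the PAM group passed the threshold (1.16, SE 0.13, adjusted p = 0.000508), while the difference with indirect CAP was 0.75 (adjusted p = 0.000291). Myo7b, the motor of the link complex, was higher by 0.53 with day 1 PAM (adjusted p = 0.0126). Ush1c, its scaffold harmonin, was higher by 0.29 in the same group (adjusted p = 0.0291).

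Tmigd1, an adhesion protein of the brush border with immunoglobulin domains, had a wide spread between lines. It was at 7, 76, 80 and 114 in untreated lines 1 to 4, and its log2 difference of 2.07 with day 2 PAM had a standard error of 1.13 (adjusted p = 0.162). The values behind it were 182, 53 and 872 in lines 1, 2 and 4. In all 6 treated groups line 4 was the highest and line 2 the lowest.

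Alpi, the alkaline phosphatase of the mature brush border, passed the threshold in the day 2 groups only. It was at 18593, 32923, 27931 and 28427 in untreated lines 1 to 4, at 59754, 39628 and 71256 with day 2 indirect CAP, and at 66547, 55134 and 95329 with day 2 PAM. All treated libraries of both groups lay above the untreated ones, with line 4 the highest and line 2 the lowest. The log2 fold change was 1.07 (SE 0.24, adjusted p = 0.00829) with indirect CAP and 1.42 (SE 0.24, adjusted p = 0.00240) with PAM. The call with indirect CAP was lost with the line as a block (1.09, adjusted p = 0.0277) and when any 1 untreated library was left out (adjusted p of 0.0118 to 0.0186), and also without treated line 1 (0.0315) or line 4 (0.0299). In the groups exposed for 24 h from day 1 Alpi did not pass. Its values after direct CAP (41054, 36340 and 44490) and with PAM (42868, 43925 and 60312) nevertheless all lay above the untreated range. With day 1 indirect CAP (34994, 29760 and 48166), line 2 was inside that range. Alpi has close paralogs, and how reads shared between copies were counted is not given in the sources used here.

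The disaccharidases did not follow Alpi in the day 2 groups. Sis was at 32230, 33758, 27677 and 32758 in untreated lines 1 to 4, and at 39254, 54092 and 14209 in lines 1, 2 and 4 with day 2 PAM. Lines 1 and 2 were thus above the untreated range and line 4 below it, and the log2 difference was -0.02 (SE 0.40, adjusted p = 0.974). Mgam, maltase-glucoamylase, showed -0.08 (SE 0.22) in the same group. After 30 min direct CAP, Sis (48059, 53252 and 41078) and Mgam (28912, 33149 and 32444) lay wholly above their untreated ranges. So did Mgam with day 1 indirect CAP (31000, 38546 and 29646, beside 22933 to 25958 in untreated organoids). None of these differences passed the threshold. Treh, which cleaves trehalose, was lower by 1.06 in the pooled groups (SE 0.40, adjusted p = 0.0531), and with the line as a block its difference of -1.15 passed the threshold (adjusted p = 0.00851).

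Lct had low values with a wide spread between lines. It was at 179, 34, 64 and 49 in untreated lines 1 to 4, and at 39, 625 and 10 in lines 1, 2 and 4 after 24 h direct CAP. Line 2 was the highest and line 4 the lowest in all 6 treated groups. Without the block, no treated group passed the threshold for any of the 4 disaccharidases.

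Of the 5 peptidases, Anpep (aminopeptidase N) and Mme (neprilysin) fell with day 2 indirect CAP, and none passed the threshold upwards in any group. Anpep was at 5855, 4160, 7446 and 4159 in untreated lines 1 to 4 and at 368, 2097 and 1577 in lines 1, 2 and 4 with day 2 indirect CAP, without overlap. Its log2 fold change was -2.29 (SE 0.54, adjusted p = 0.00953), and with the line as a block the difference of -2.12 no longer passed (adjusted p = 0.0330). With day 2 PAM the values were 1293, 5635 and 8388, so that line 1 lay below the untreated range, line 2 inside it and line 4 above it.

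Mme was at 11869, 12415, 10009 and 7552 in untreated lines 1 to 4, and at 2138, 6137 and 1403 with day 2 indirect CAP, all below the untreated range. Its log2 fold change was -1.96 (SE 0.44, adjusted p = 0.00771). With day 2 PAM it was at 4329, 9319 and 845, overlapping in line 2, with a difference of -1.66 (SE 0.69, adjusted p = 0.0782). The calls of Anpep and Mme were lost when any 1 untreated library was left out, at adjusted p between 0.0127 and 0.0246. That of Anpep was also lost without treated line 4 (0.0145), and that of Mme without treated line 1 (0.0314) or line 4 (0.0208). Ace was lower by 0.51 with day 2 indirect CAP (adjusted p = 0.0216), and Enpep and Ggt1 did not pass in any treated group.

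No sugar transporter passed the threshold against the untreated libraries in any group. Slc2a5, the fructose transporter GLUT5, was at 1567, 1600, 1312 and 1513 in untreated lines 1 to 4, and at 2914, 2841 and 2294 after 30 min direct CAP. The difference of 0.84 (SE 0.11) had the smallest unadjusted p among the members in that group (4.48e-05), but over 17731 genes its adjusted p was 0.1005. With day 1 PAM it was at 300, 1177 and 840, all below the untreated range, with a difference of -1.16 (adjusted p = 0.0432). With day 2 indirect CAP it was at 954, 1059 and 388, also below that range, with -1.03 (adjusted p = 0.0266).

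Slc2a2, the glucose transporter GLUT2, was at 1065, 766, 651 and 840 in untreated lines 1 to 4. It was at 1664, 2298 and 1651 after 30 min direct CAP (1.18, SE 0.18, adjusted p = 0.1005), and at 1809, 3322 and 1051 with day 1 indirect CAP, where line 4 fell inside the untreated range. Slc5a1, the sodium-glucose cotransporter SGLT1, was at 13734, 15332 and 14250 after 30 min direct CAP beside 8061 to 10732 in untreated organoids (0.56, adjusted p = 0.1005). After 30 min direct CAP 9 members lay wholly above the untreated range and 1 wholly below, beside 12.4% and 11.2% of all genes.

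Slc15a1, the peptide transporter PEPT1, had a positive difference in the groups starting at day 1 and a negative one in those starting at day 2. It was at 1291, 963, 1317 and 1127 in untreated lines 1 to 4, at 1102, 3475 and 3140 with day 1 PAM, and at 134, 523 and 578 with day 2 indirect CAP. The difference was 0.97 with day 1 PAM (SE 0.36, adjusted p = 0.0592) and -1.76 with day 2 indirect CAP (SE 0.45, adjusted p = 0.0143), where the groups did not overlap.

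The amino acid transporters varied less. Slc7a9, the light subunit of the cystine transporter, was at 902 to 1197 in untreated organoids and at 1489, 1665 and 1585 after 24 h direct CAP (0.58, SE 0.11, adjusted p = 0.0120). Slc3a1, its heavy subunit, was at 3346 to 4712 in untreated organoids and at 5553, 6618 and 5268 with day 2 PAM (0.51, adjusted p = 0.0155). Both groups lay above the untreated range and neither reached the fold minimum. Slc6a19, the neutral amino acid transporter, and Slc7a7, a basolateral exporter subunit, passed an adjusted p of 0.05 in no treated group.

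Cubn and Amn encode cubilin and amnionless, the partners of the cobalamin receptor, and Cubn alone of the pair passed the threshold. It was at 15, 6, 19 and 18 in untreated lines 1 to 4 and at 74, 48 and 70 with day 1 PAM. All 9 libraries of the pooled groups (22 to 74) lay above all untreated ones. Its log2 fold change was 1.60 (SE 0.36, adjusted p = 0.00423) in the pooled groups and 2.15 (SE 0.40, adjusted p = 0.00349) with day 1 PAM. At these low read numbers counting error is large. The call in the pooled groups was lost without untreated line 1 or line 2 (adjusted p of 0.0126 and 0.0195), and that with day 1 PAM without line 1 or line 4 of the PAM group (0.0129 and 0.0168).

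Amn was at 1144, 1082, 2006 and 824 in untreated lines 1 to 4 and at 368, 1318 and 611 with day 1 PAM. Its difference of -0.84 did not pass. Slc10a2 was at 42 to 77 in untreated organoids and at 121, 237 and 62 with day 1 PAM (1.15), with line 4 inside the untreated range.

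Lrat, which esterifies retinol for storage, had the lowest log2 fold change of the 35 genes in the pooled groups and in both day 2 groups. It was at 555, 475, 456 and 500 in untreated lines 1 to 4, at 208, 329 and 182 after 24 h direct CAP, at 186, 282 and 198 with day 1 indirect CAP, and at 133, 358 and 205 with day 1 PAM. In the day 2 groups it was at 104, 93 and 73 with indirect CAP and at 143, 118 and 34 with PAM. Every treated library lay below every untreated one, including those after 30 min direct CAP (402, 430 and 324). The log2 fold change was -1.16 (SE 0.21, adjusted p = 0.00152) in the pooled groups, -2.46 (SE 0.15, adjusted p = 3.76e-05) with day 2 indirect CAP and -2.56 (SE 0.44, adjusted p = 0.00240) with day 2 PAM. The call for day 1 indirect CAP (-1.18, SE 0.16, adjusted p = 0.00505) was lost with the line as a block (-1.22, adjusted p = 0.0114) and when any 1 of 6 of its 7 libraries was left out, all but the treated line 2.

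Rbp2, which presents retinol to Lrat in the enterocyte, was at 7796 to 9127 in untreated organoids and at 3979, 6063 and 4058 with day 2 indirect CAP. The groups did not overlap, and the difference was -0.85 (SE 0.15, adjusted p = 0.00255), short of the fold minimum. In the groups starting at day 1 the difference was between -0.07 and 0.25.

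Cyp3a13, a cytochrome P450 of the small intestine, differed so widely between lines that the fits without a block made no call. It was at 1056, 1589, 2507 and 4523 in untreated lines 1 to 4, at 3562, 4210 and 16383 in lines 1, 2 and 4 after 24 h direct CAP, and at 5051, 9001 and 18480 with day 1 PAM. Line 4 was the highest and line 1 the lowest in all 6 treated groups. The log2 difference was 1.60 (SE 0.54, adjusted p = 0.0338) in the pooled groups. With the line as a block it was 1.69 (SE 0.28, adjusted p = 0.00138), and Cyp3a13 passed in all 5 of the single groups exposed for 24 h, at 1.67 after direct CAP, 1.14 and 2.26 with day 1 indirect CAP and PAM, and 1.13 and 1.82 with day 2 indirect CAP and PAM. Related Cyp3a genes can share reads with it.

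With the line as a block, 6 members passed in the pooled groups (7.18% of all genes), 1 after 24 h direct CAP (2.02%), 1 with day 1 indirect CAP (1.81%), 4 with day 1 PAM (7.81%), 4 with day 2 indirect CAP (10.6%) and 6 with day 2 PAM (14.9%). The single members after 24 h direct CAP and with day 1 indirect CAP were then Cyp3a13 in place of Cdhr2 and Lrat.

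**Figure D4:**
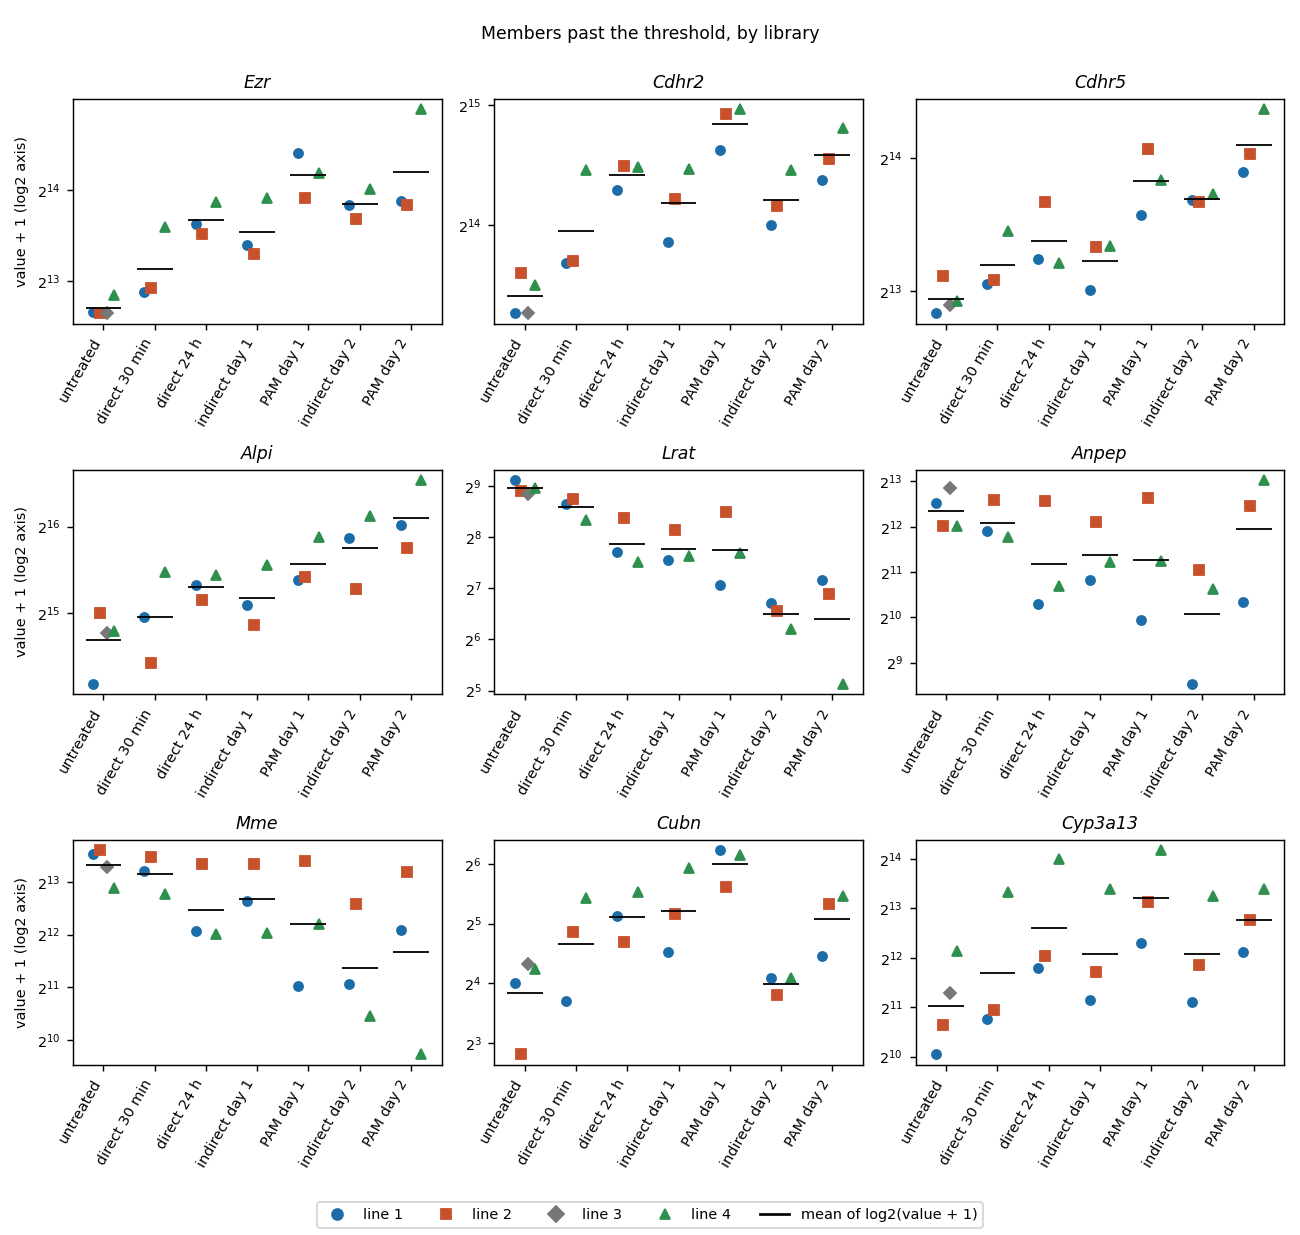
Value + 1 on a log2 axis of 9 genes in each library, by group, with the line as symbol and the mean of log2(value + 1) as a bar. The 8 genes called without a block and Cyp3a13, called with the line as a block, are shown, and Ezr, Cdhr2 and Lrat separate every group exposed for 24 h from the untreated libraries.

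Day 2 indirect CAP was set against day 1 indirect CAP. By the paper, organoids of the day 1 group received newly conditioned medium, then unconditioned medium for 24 h before collection. The conditioned medium of the day 2 group was also made at day 1, and it stayed on until collection. Starting day, age of the medium and time since exposure therefore cannot be told apart here. Without a block 0 members passed in limma's test (0.0111% of all genes), with 10 at an unadjusted p under 0.05, beside 21.7% of all genes. With the line as a block, which here rests only on treated libraries, 7 members passed, beside 3.46% of 17987 genes. All 7 were lower, as were 2.31% of all genes, while 1.15% of all genes and 0 members were higher. These are Lct, Slc15a1, Slc2a2, Anpep, Mme, Lrat and Slc2a5.

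Slc2a2 went from 1809, 3322 and 1051 in lines 1, 2 and 4 with day 1 indirect CAP to 429, 1098 and 275 from day 2. All 3 lines fell by similar amounts, while their levels within a group differed widely. This is a log2 fold change of -1.87 (SE 0.10, adjusted p = 1.56e-05 with the block, and 0.125 without it). Slc15a1 went from 939, 1996 and 2308 to 134, 523 and 578 (-2.24, SE 0.15, adjusted p = 2.56e-05), and Lct from 119, 1027 and 32 to 24, 111 and 11 (-2.31, SE 0.28, adjusted p = 0.000410).

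Slc2a5 fell by 1.28 on the log2 scale (SE 0.09), Anpep by 1.32 (SE 0.24), Mme by 1.31 (SE 0.14) and Lrat by 1.28 (SE 0.17), each in all 3 lines. At an adjusted p under 0.05 without the fold minimum, 16 members were lower and 5 higher in the same fit, beside 14.3% and 9.27% of all genes. Among the structure and adhesion genes Myo1a was lower by 0.41 (adjusted p = 0.00424) and Vil1 by 0.25 (adjusted p = 0.0462), while Ezr was higher by 0.31 (adjusted p = 0.0335) and Cdhr5 by 0.47 (adjusted p = 0.00460). Alpi was higher by 0.58 (adjusted p = 0.00358).

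**Figure D5:**
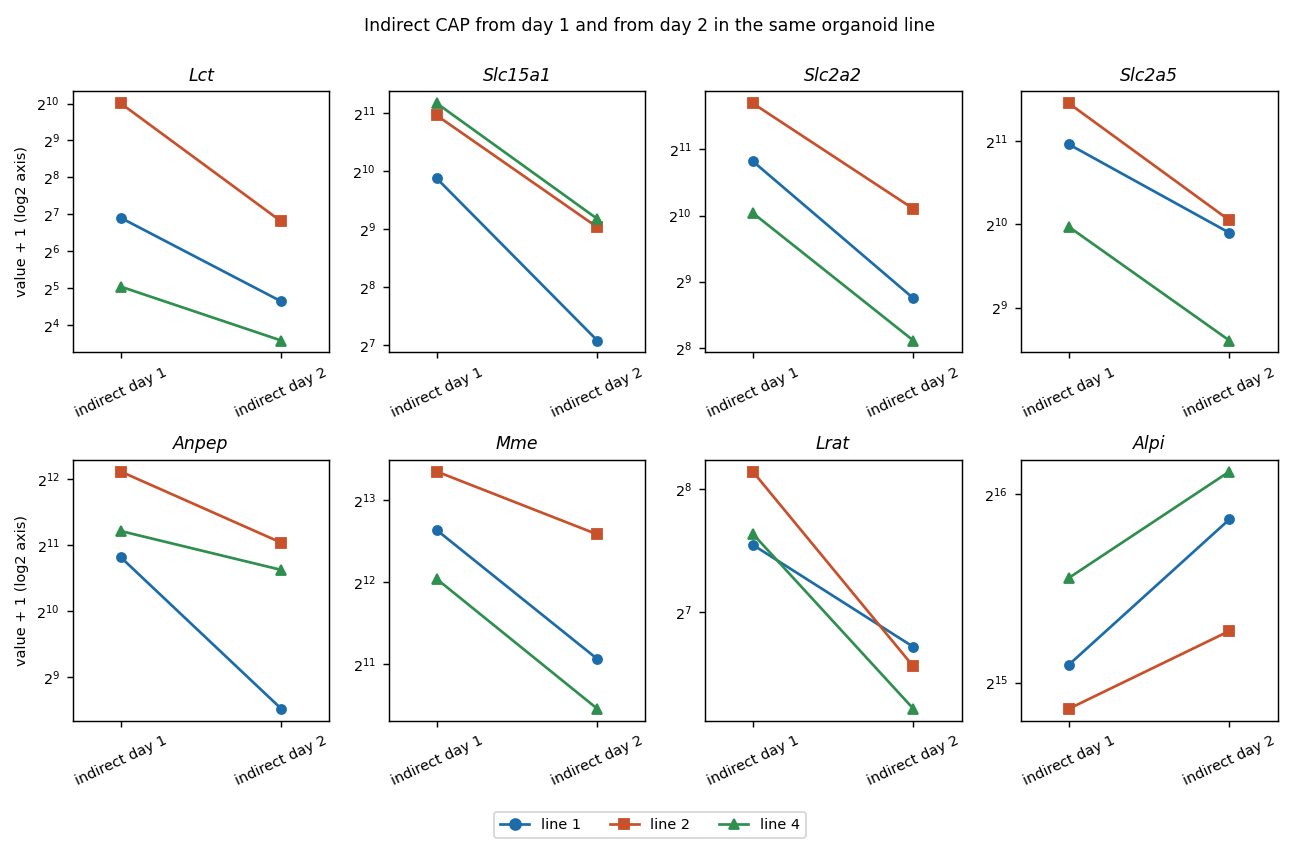
Value + 1 on a log2 axis of 8 genes with day 1 indirect CAP and from day 2, with libraries of the same line joined. The 7 genes called lower with the line as a block fall in every line, and Alpi, shown for contrast, is higher in every line from day 2.

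The other comparisons between treated groups gave 0 calls among the members in limma's test, without and with the block. For direct CAP, 24 h against 30 min had 3 members at an unadjusted p under 0.05, beside 21.4% of all genes (0% of all genes called, and 1.13% with the block). PAM against direct CAP from day 1 had 4, beside 10.4% of all genes. They were Ezr, Cdhr2, Cdhr5 and Cubn, each higher with PAM by 0.42 to 0.88 at adjusted p of 0.436 to 0.464 (0% called, and 0.34% with the block). Day 2 PAM against day 1 had 4 (26.8% of all genes), and PAM against day 2 indirect CAP had 4 (9.48%), with 0% called in both, without and with the block. In the last, 33 of 35 members had a positive difference, with a median of 0.30 beside -0.11 for all genes. With quantile normalization 32 were positive and the medians were 0.28 and 0.01. The differences in calls between indirect CAP and PAM, such as Anpep and Mme, are therefore not shown to be differences between the media.

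For several members the same line was the highest or the lowest in every treated group. Line 2 was the highest in all 6 groups for 8 members, Sis, Lct, Enpep, Mme, Ggt1, Slc2a2, Amn and Rbp2, beside 4.80% of 19370 genes. Line 4 was the highest in all 6 for Eps8, Tmigd1, Alpi and Cyp3a13 (4.97% of all genes), and line 1 the lowest in all 6 for Cdhr2, Slc15a1, Slc7a7 and Cyp3a13 (1.69%). In each of the 5 groups exposed for 24 h the number of members below all untreated libraries was smallest in line 2. With day 1 PAM, line 1 had 17 members below, beside 37.3% of all genes, and line 2 had 2, beside 40.7%.

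Other genes of the same apparatus were taken from fixed lists. Of 10 other brush border structure genes, 0 passed the threshold in the pooled groups or with day 2 PAM (3 and 3 higher, and 2 and 0 lower, at an adjusted p under 0.05 without the fold minimum). Of 10 other brush border hydrolases, 0 of 9 tested passed in the pooled groups and 2 of 8, Asah2 (-1.88) and Mep1a (-1.29), were lower with day 2 PAM. Of 20 other uptake and export genes, 18 were tested and 2 rose and 2 fell in each. One of those that rose in the pooled groups, Slc28a2, is also in the villus tip list. The iron reductase Cybrd1 rose by 1.66 in the pooled groups and by 2.39 with day 2 PAM, and the glutamate transporter Slc1a1 (-2.43 and -4.09) and the amino acid transporter Slc7a8 (-1.67 and -2.95) fell in both.

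Of 5 genes known from the villus tip, 4 rose in the pooled groups, Nt5e (3.82), Slc28a2 (3.09), Ada (1.94) and Klf4 (1.13). Nt5e, Slc28a2 and Ada handle nucleosides, and Klf4 is a transcription factor. The fifth, Apoa4, was at 0.05. Of 10 transcription factors of the enterocyte, 0 passed in the pooled groups and 1, Cdx1 (-1.13), fell with day 2 PAM.

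Markers of other cells of the epithelium moved in the same libraries. The summed value of 4 stem cell markers was 28399 to 33368 in untreated organoids and 650 to 1925 with day 2 PAM, where all 4 passed the threshold downwards, and 3 of 4 did in the pooled groups. The summed value of 4 proliferation markers went from 17477 to 22915 in untreated organoids to 3580 to 7061 with day 2 PAM (4 of 4 lower). For 4 Paneth cell markers the sums were 21047 to 28206 and 3660 to 15912 (0 of 4 past the threshold), and for 5 goblet cell markers 75553 to 132265 and 17497 to 46618 (1 of 5 lower). In the pooled groups 2 of 4 Paneth cell markers were lower, and 1 of 5 goblet cell markers was higher and 0 lower, with goblet sums of 82023 to 183767 with day 1 PAM.

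The sums of 5 regenerative markers were 1779 to 8296 in untreated organoids and 15236 to 21273 with day 2 PAM (1 of 5 higher, and 4 of 5 higher in the pooled groups). Those of 4 enteroendocrine markers were 1506 to 2789 and 2850 to 4686 (0 of 4 past the threshold, as in the pooled groups). Taken singly, each enteroendocrine marker overlapped its untreated range with day 2 PAM. The sums of 4 tuft cell markers were 94 to 171 and 158 to 199. Of the tuft cell markers only Avil was higher with day 2 PAM (94, 150 and 131, beside 10 to 42 in untreated organoids). Pou2f3 (14, 4 and 12, beside 28 to 46) and Dclk1 (1, 0 and 2, beside 5 to 18) were lower, and Trpm5 overlapped. The 6 stromal, endothelial and immune markers summed to 27 to 56 in untreated organoids and 71 to 96 with day 2 PAM, of which Cd68 gave 42, 45 and 70, and Dcn was at 0 in 21 of 22 libraries. The 13 enterocyte markers, 11 of them members, summed to 132463 to 143275 in untreated organoids and to 162677 to 200040 with day 2 PAM. Without Alpi the other 12 summed to 104921 to 113870 in untreated organoids and to 67348 to 144906 with day 2 PAM. The median log2 fold change of the 13 was -0.41 with day 2 PAM, with 1 called higher and 0 lower, and -0.85 with day 2 indirect CAP, with 1 higher and 2 lower. The part of these shifts in the members' changes was not tested. In whole cultures more cells of a type and more RNA per cell cannot be told apart.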

How the data were processed

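Reads were aligned by the authors to GRCm38 with STAR 2.5.3a after Trimmomatic 0.36 (tools and versions from the submitters' processing notes) and counted on Ensembl genes with HTSeq 0.9.1. Each value deposited by the authors is a score, read here as a read count scaled to about 20 M and rounded up, with no division by gene length. The paper's figure legends instead describe its unit as taken per kilobase of transcript. The levels per kilobase given above rest on the deposited values not being so divided. Library totals were 20007540 to 20016513. Because of the rounding, exact reads could not be recovered and no count model was used. Depth was estimated from the spacing of low values, and counting error is large at low values.

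Tests ran on log2(value + 1) in limma 3.58.1 and R 4.3.3 (trended moderated test, Benjamini-Hochberg over all genes tested), for genes reaching 10 in 3 or more libraries fitted. The test was checked on simulated data. Same line means same mouse, which pairs the libraries, and the line was used as a block in an alternative. Where nothing says that libraries of a line were separate cultures, p-values measure only the spread between these libraries. None of 24 replicate pairs agreed within sampling noise.

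Also tried were no filter, quantile normalization, all 7 groups in 1 fit, a pseudocount of 10, an adjusted p under 0.05 alone, and leaving out each library. Leaving out untreated lines 1 and 2 was added after seeing the data. The 35 members, the role lists and the other gene lists were chosen with earlier results of these data known. All members are named. Of other lists at most the 4 largest changes past the threshold in the pooled groups or with day 2 PAM are named. Apoa4, Dcn and the 4 tuft cell markers were singled out after their values were seen. Exon lengths came from GENCODE vM21, and promoters from RefSeq. Figures used matplotlib 3.10.9.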

Additional observations from a re-analysis of the deposited data

Results flagged for a closer look

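In 4 of 70 groups of values checked (35 genes in the 4 untreated libraries and in the 9 libraries of the pooled groups) 1 library lay far from the rest by Dixon's test at the 95% level, which chance gives in about 1 of 20 groups. In untreated organoids these were Myo1a at 11485 in line 1, Ezr at 7365 in line 4 and Tmigd1 at 7 in line 1, and in the pooled groups Ace at 767 in line 1 with day 1 PAM.

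With the line as a block, 7 members were lower with day 2 than with day 1 indirect CAP in limma's test, beside 2.31% of all genes. The log2 fold changes were -2.31 for Lct, -1.32 for Anpep, -1.31 for Mme, -1.87 for Slc2a2, -1.28 for Slc2a5, -2.24 for Slc15a1 and -1.28 for Lrat, lower in all 3 lines.

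For 2 members every library of one treated group lay on one side of the untreated range and every library of another on the opposite side, a difference between groups that was not tested. Myo1a was higher after 30 min direct CAP (log2 difference of 0.17) and lower with day 2 indirect CAP (-0.33). Slc2a5 was higher after 30 min direct CAP (0.84) and lower with day 1 PAM (-1.16), day 2 indirect CAP (-1.03) and day 2 PAM (-1.18).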

How the results depend on the processing

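Of 290 values of single called genes under an alternative, 0 changed direction, 228 kept their side of the threshold and 62 did not. Over all genes tested, the median difference (log2) did change sign in several comparisons. Without the filter it went from -0.05 to 0.05 in the pooled groups and from -0.008 to 0.083 with day 2 indirect CAP. With quantile normalization it went from -0.11 to 0.01 for PAM against indirect CAP of day 2, and from -0.12 to 0.0003 with day 2 PAM. It then also went from 0.004 to -0.035 with day 1 indirect CAP and from 0.017 to -0.018 after 30 min direct CAP. With an adjusted p under 0.05 alone, a looser limit by construction, the counts rose among the members and among all genes. For the members they were 13 in the pooled groups (6187 of 18490 genes), 4 after 24 h direct CAP (2995 of 17335) and 5 with day 1 indirect CAP (3662 of 17818). They were 14 with day 1 PAM (7253 of 17357), 14 with day 2 indirect CAP (7819 of 17860) and 15 with day 2 PAM (8419 of 17694). Between the days of indirect CAP the count was 1 (607 of 17987). After 24 h direct CAP the count was 0 with quantile normalization (418 of all genes) and 2 with a pseudocount of 10 (390). With day 1 indirect CAP it was 0 with all groups in 1 fit (346 of all genes). With day 2 indirect CAP it was 3 with quantile normalization (2128 of all genes), 2 without the filter (2031) and 3 with all groups in 1 fit (2332). The cause was not tested.

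Leaving out 1 library at a time gave 0 to 5 calls among the members after 24 h direct CAP (34 to 377 among all genes). It gave 0 to 1 with day 1 indirect CAP (25 to 110), 2 to 7 with day 1 PAM (1134 to 1668) and 2 to 9 with day 2 indirect CAP (1357 to 2185). With no library left out, 376, 233, 1775 and 2127 genes passed. Without treated line 2, 24 h direct CAP, day 1 PAM and day 2 indirect CAP reached their highest counts (5, 7 and 9, of which 4, 4 and 7 were lower). In those fits 377, 1668 and 1764 genes passed. With day 1 PAM the count was 5 without its line 1, and with day 2 indirect CAP it was 2 without any 1 untreated library or without its line 4. The range was 3 to 4 in the pooled groups (651 to 1309 among all genes) and 5 to 6 with day 2 PAM (2201 to 2946). Without untreated lines 1 and 2 the counts were 0 in the pooled groups (148 of all genes) and after 24 h direct CAP (0). They were also 0 with day 1 indirect CAP (0) and with day 2 PAM (1). Day 2 indirect CAP gave 2 (1057 of all genes) and day 1 PAM gave 3 (866).

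With the line as a replicate block the count between the days of indirect CAP was 7 instead of 0 (3.46% of all genes instead of 0.0111%). Against untreated libraries the block gave 6, 1, 1, 4, 4 and 6 calls in the pooled groups, 24 h direct CAP, day 1 indirect CAP, day 1 PAM, day 2 indirect CAP and day 2 PAM, and apart from the calls named with it above it changed no other. These pairings rest on the labels of untreated lines 1 and 2. Depth limits most the members with the lowest values, Cubn, Slc10a2, Tmigd1 and Lct.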
